A study of Homo sapiens with 9 samples.

Results

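The genes described here were the aminoacyl-tRNA synthetases and the non-enzyme proteins of the multisynthetase complex, 40 of the 24204 genes in the expression table. They were taken by name alone: symbols made of an amino acid letter followed by ARS, with or without 1 or 2, EPRS1, the FARSA and FARSB subunits, and the complex proteins AIMP1, AIMP2 and EEF1E1. The set held 20 cytosolic genes, 17 mitochondrial genes whose symbols end in 2, and 3 complex proteins. RNA-seq was done on HepG2, a human liver cancer cell line, infected for 48 h with lentivirus that expressed short hairpin RNAs: a control (shCtrl) or either of 2 directed at TRIB3 (shTRIB3-1, shTRIB3-2) and then kept for 48 h in puromycin, which kills uninfected cells. All 9 libraries, 3 per group, therefore came from infected and puromycin-selected cells of passage P2, grown by the labels in high-glucose DMEM with 10% fetal bovine serum. The study's methods instead describe RNA from cells deprived of glutamine, in a passage shared with its series on glutamine deprivation. Its discussion reports altered repair gene expression after TRIB3 depletion without that deprivation. The sources thus differ, and the medium at harvest is uncertain. The labels do not say that the 3 libraries of a group came from separate cultures, so the p-values measure the spread between these libraries, which may be technical.

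Aminoacyl-tRNA synthetases join each amino acid to its tRNA, and the ribosome can use an amino acid only in this charged form. Cytosolic and mitochondrial translation run on separate tRNAs, and most amino acids have a nuclear gene for an enzyme of each compartment. GARS1 and KARS1 encode the enzymes of both compartments, and mitochondria make glutaminyl-tRNA without an enzyme of their own, by converting a glutamate that EARS2 has loaded. Several cytosolic enzymes sit in the multisynthetase complex, held by AIMP1, AIMP2 and EEF1E1. When amino acids run short, uncharged tRNA activates the kinase EIF2AK4 (GCN2), translation of the transcription factor ATF4 increases, and ATF4 is known to drive many cytosolic synthetase genes. TRIB3, a pseudokinase, is itself an ATF4 target known to bind ATF4 and restrain it.

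The hairpins differ in where they pair with TRIB3, and their targets are shown because many of the results below differ between them. Both targets are 21 bases long, lie in the coding sequence of transcript TRIB3-201 (GRCh38, GENCODE v44, plus strand), and are written in the sense of the mRNA.
shTRIB3-1: tggatgacaacttagataccg
shTRIB3-2: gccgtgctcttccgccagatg
The shTRIB3-1 target lies in exon 2 of 4 at chr20:388072-388092 and occurs in 4 of the 4 annotated TRIB3 transcripts. The shTRIB3-2 target lies in exon 3 at chr20:391473-391493 and occurs in 3 of them. Expression is given as FPKM, in which fragments are divided by gene length and by library depth. TRIB3 (chr20:362835-397559) stood at 67.9, 65.8 and 66.6 FPKM in the shCtrl libraries. It was at 34.1, 32.7 and 34.0 FPKM with shTRIB3-1 and at 20.6, 20.7 and 20.4 FPKM with shTRIB3-2. The groups did not overlap, and the targeted gene was lower in every library labelled as a knockdown, at 50.3% of the control mean with shTRIB3-1 and 30.8% with shTRIB3-2. On the log2(FPKM + 0.1) scale used for all fold changes here, TRIB3 fell, by -0.99 (SE 0.030, adjusted p = 5.30e-11) and -1.70 (SE 0.030, adjusted p = 5.39e-13), and it was lower with shTRIB3-2 than with shTRIB3-1 by -0.71 (adjusted p = 9.54e-09).

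In the control libraries, cytosolic synthetase transcripts were the more abundant. FPKM allows levels of different genes to be compared per length, and in shCtrl the median of the 20 cytosolic means was 49.1 FPKM against 9.53 FPKM for the 17 mitochondrial genes. Cytosolic levels ran from 9.20 FPKM for FARSB, the beta subunit of the phenylalanine enzyme, to 93.2 FPKM for NARS1, the asparagine enzyme. Mitochondrial levels ran from 1.29 FPKM for FARS2, the phenylalanine enzyme of that compartment, to 61.2 FPKM for IARS2, which charges isoleucine. The subunits FARSA and FARSB, which form a common enzyme, were listed at 35.3 and 9.20 FPKM. Levels compared between genes depend on the gene length used. The length recovered from FPKM was 9202 bases for FARSB and 7099 for FARS2, above their 6761 and 4838 exon bases in GENCODE v44. Over the 9 libraries FARSB had 2877 to 3448 fragments, more than the 1743 to 2350 of FARSA. The low FPKM of FARSB and FARS2, and ratios that use them, therefore rest partly on these lengths. In other members the recovered length was below the GENCODE exon bases. It was 4845 against 22418 bases for IARS1, 2690 against 17366 for GARS1 and 3530 against 4135 for IARS2. Among the 18 pairs that charge the same amino acid in the 2 compartments (EPRS1 and FARS2 enter 2 pairs each), the cytosolic mean was above the mitochondrial one in every pair. The ratio of levels ran from 1.07 for IARS1 and IARS2 to 27.3 for FARSA and FARS2. The order within a pair, above all that of IARS1 and IARS2, also depends on the gene lengths used, and other lengths were not tried. Every member passed the filter on low values (at least 1 FPKM in at least 3 of 9 libraries), and the least covered, PARS2, still had 76 fragments in its lowest library.

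**Figure D1:**
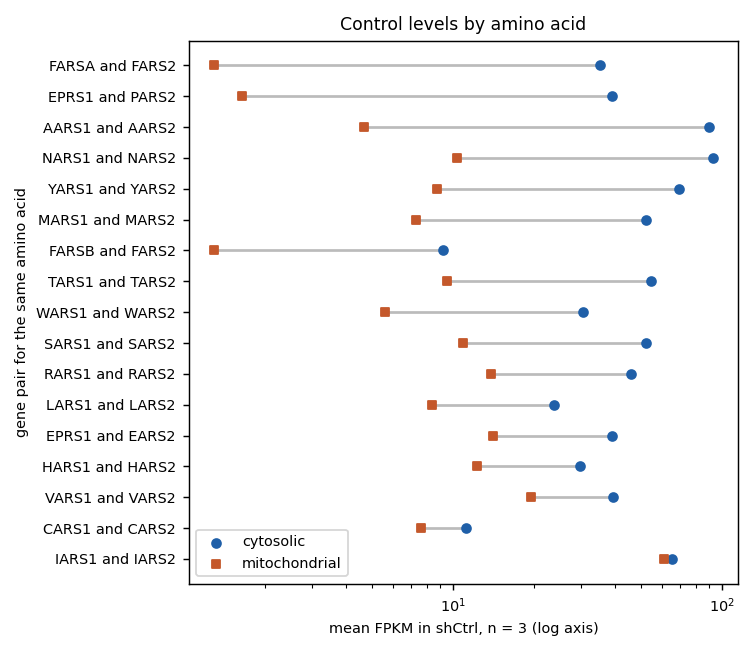
Mean FPKM in the 3 shCtrl libraries (log axis) of each cytosolic gene (circles) and its mitochondrial counterpart (squares), joined by a line for each of 17 pairs. Pairs are ordered by the ratio of levels, from IARS1 and IARS2 (1.07) at the bottom to FARSA and FARS2 (27.3) at the top.

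With either hairpin more members fell than rose, and the falls were moderate. With shTRIB3-1, 23 of the 40 members passed the test lower and 10 higher, which is 57.5% and 25.0%, where 41.5% of the 11265 genes tested passed lower and 32.9% higher. With shTRIB3-2, 29 passed lower and 5 higher, which is 72.5% and 12.5%, beside 40.5% and 35.4% of all genes tested. A gene passed at an adjusted p under 0.05 (limma on log2(FPKM + 0.1), adjusted over all genes tested). The median log2 fold change of the members was -0.21 with shTRIB3-1 and -0.32 with shTRIB3-2, and over all genes tested it was -0.06 and -0.03. No member changed by more than 1 on the log2 scale in any comparison, whereas 11.5% of all genes tested passed with such a change with shTRIB3-1 and 12.3% with shTRIB3-2. Both comparisons use the same 3 shCtrl libraries. The share of genes called was high throughout the table, so a call by itself says little about a member, and the sizes and library values below carry the description.

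**Figure D2:**
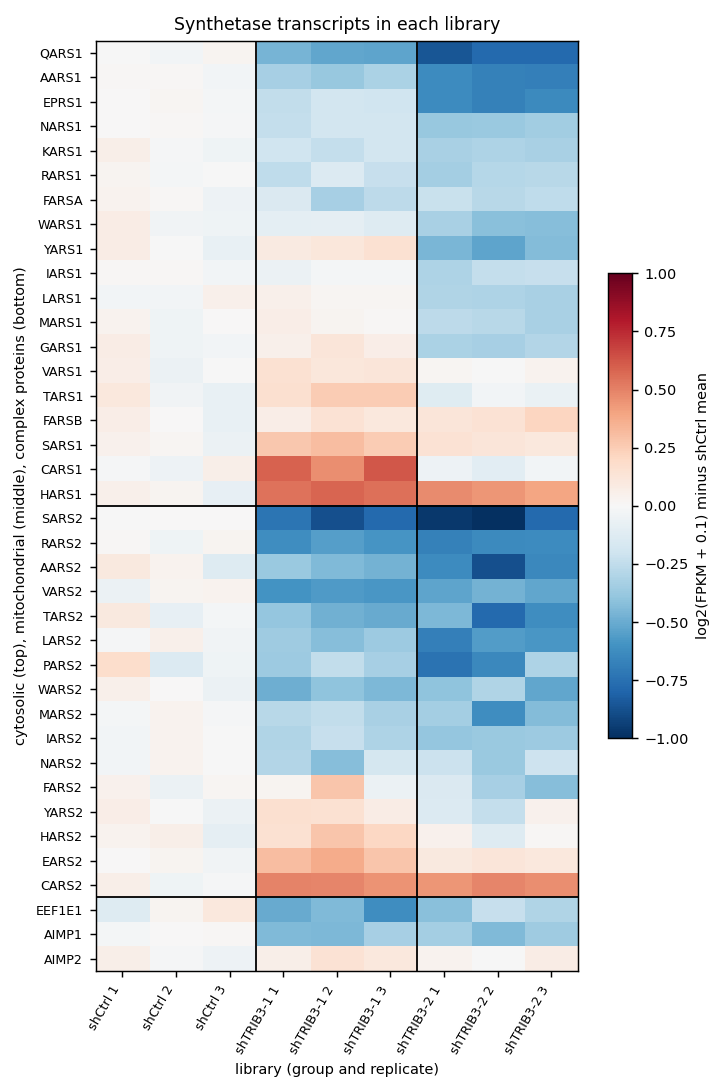
Difference of log2(FPKM + 0.1) from the shCtrl mean (color, from -1 to 1) for 38 members (rows) in 9 libraries (columns), with black lines between groups and between cytosolic genes, mitochondrial genes and complex proteins. QARS1, AARS1, SARS2 and RARS2 are low in all 6 knockdown libraries, HARS1 and CARS2 are high in all 6, and CARS1 is high in the 3 shTRIB3-1 libraries.

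The cytosolic genes split with shTRIB3-1, much as all genes tested did, and mostly fell with shTRIB3-2. With shTRIB3-1, 6 of 20 rose, 9 fell and 5 did not pass, with a median log2 fold change of -0.00077. Scaling each library by its median gene turned this split to 10 higher and 8 lower (median 0.079), and TPM turned it to 4 higher and 10 lower (median -0.055), so no direction is given for the cytosolic genes as a group with this hairpin. With shTRIB3-2, 3 rose, 14 fell and 3 did not pass, with a median of -0.31, and under both of those scalings 3 rose and 14 fell. That is 15.0% higher and 70.0% lower, beside 35.4% and 40.5% of all genes tested. The summed level of the 20 genes was 999.8 ± 22.0 FPKM in shCtrl, 954 ± 5.10 with shTRIB3-1 and 803 ± 2.11 with shTRIB3-2 (SD, n = 3 each), or 95.5% and 80.3% of control.

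**Figure D3:**
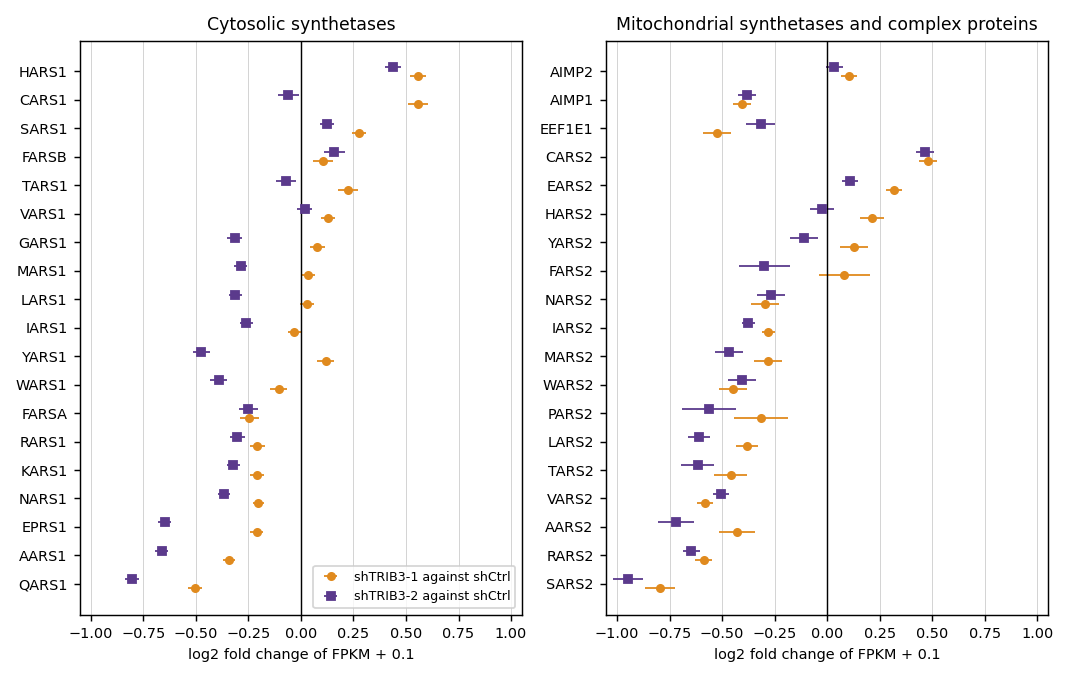
Log2 fold change against shCtrl on the log2(FPKM + 0.1) scale (horizontal axis, bars are 1 standard error) with shTRIB3-1 (circles) and shTRIB3-2 (squares), for cytosolic genes (left) and for mitochondrial genes and complex proteins (right). Values run from -0.95 for SARS2 to 0.56 for HARS1, and most squares lie to the left of the circle of the same gene.

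Among the cytosolic genes, QARS1 and AARS1 fell with both hairpins and had their lowest levels with shTRIB3-2. QARS1 (chr3:49095932-49105130, minus strand), which charges glutamine, stood at 85.9, 84.4 and 87.5 FPKM in shCtrl, at 62.4, 59.8 and 59.6 FPKM with shTRIB3-1 and at 47.3, 50.2 and 50.2 FPKM with shTRIB3-2. The 3 groups did not overlap. QARS1 fell, by log2 changes of -0.50 (SE 0.034, adjusted p = 4.47e-08) and -0.80 (SE 0.034, adjusted p = 5.54e-10), the second of these being the largest fall of a cytosolic member with shTRIB3-2. AARS1 (chr16:70251983-70289707, minus strand), the alanine enzyme, is among the most abundant members. It stood at 90.6, 90.6 and 88.4 FPKM in shCtrl, at 71.4, 69.0 and 72.3 FPKM with shTRIB3-1 and at 58.0, 56.3 and 55.9 FPKM with shTRIB3-2. The 3 groups again did not overlap, and AARS1 fell, by log2 changes of -0.34 (adjusted p = 5.00e-07) and -0.66 (adjusted p = 1.02e-09).

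HARS1, CARS1 and SARS1 lay at the other end of the cytosolic set. HARS1 (chr5:140673035-140691537, minus strand), the histidine enzyme, stood at 30.9, 30.4 and 28.2 FPKM in shCtrl, at 43.5, 44.7 and 43.6 FPKM with shTRIB3-1 and at 41.4, 40.5 and 39.3 FPKM with shTRIB3-2. It rose by 0.56 (adjusted p = 6.18e-08) and by 0.44 (adjusted p = 5.13e-07), with all 6 knockdown libraries above all 3 controls. HARS1 and HARS2 lie head to head on opposite strands, and 8.5% of HARS1 exon bases overlap genes on the other strand. CARS1 (chr11:3000922-3057613, minus strand), the cysteine enzyme, stood at 11.1, 10.8 and 11.6 FPKM in shCtrl, at 16.9, 15.4 and 17.2 FPKM with shTRIB3-1 and at 10.8, 10.4 and 11.0 FPKM with shTRIB3-2. It rose by 0.56 with shTRIB3-1 (adjusted p = 6.51e-07), while with shTRIB3-2 its change was -0.06 with a 95% interval from -0.17 to 0.05 (adjusted p = 0.288). SARS1 (chr1:109213918-109238182, plus strand) charges serine. It stood at 54.0, 53.2 and 50.3 FPKM in shCtrl, at 63.1, 65.04 and 62.8 FPKM with shTRIB3-1 and at 57.9, 57.2 and 56.4 FPKM with shTRIB3-2. The SARS1 groups did not overlap, and its rises were 0.28 (adjusted p = 8.96e-06) and 0.12 (adjusted p = 0.00486).

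The 8 synthetase genes of the multisynthetase complex, EPRS1, IARS1, KARS1, LARS1, MARS1, QARS1 and RARS1 among them, fell with shTRIB3-2 without exception. Their log2 fold changes with shTRIB3-2 ran from -0.80 for QARS1 to -0.26 for IARS1, with a median of -0.32. With shTRIB3-1, 5 of the 8 fell, EPRS1, KARS1, QARS1 and RARS1 among them, and none rose. Of all genes tested, 40.5% fell and 35.4% rose with shTRIB3-2, and 41.5% fell and 32.9% rose with shTRIB3-1. IARS1, LARS1 and MARS1, which charge isoleucine, leucine and methionine, had values of -0.03, 0.03 and 0.03 with shTRIB3-1 (adjusted p = 0.368, 0.421 and 0.358). Scaled by the median gene, the LARS1 and MARS1 values with shTRIB3-1 became 0.11 and 0.11 and passed (adjusted p = 0.0167 and 0.0187), and as TPM the IARS1 value became -0.09 and passed (adjusted p = 0.0352). EPRS1 (chr1:219968600-220046530, minus strand), whose protein charges both glutamate and proline, stood at 39.2, 39.5 and 38.5 FPKM in shCtrl, at 33.0, 34.3 and 34.0 FPKM with shTRIB3-1 and at 25.3, 24.4 and 25.1 FPKM with shTRIB3-2. It fell, by log2 changes of -0.21 (adjusted p = 5.86e-05) and -0.65 (adjusted p = 1.87e-09). KARS1, the lysine enzyme of both compartments, had log2 fold changes of -0.21 and -0.32, and RARS1, the arginine enzyme, of -0.21 and -0.30, all past the test. In MARS1, 12.4% of exon bases overlap genes on the other strand, among them DDIT3, which itself was at 18.4, 21.7 and 31.7 FPKM in the 3 groups. Whether counting used the strand is not stated, and its part in the MARS1 value was not tested.

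The 12 cytosolic genes outside the complex were divided in direction. Of all genes tested, 32.9% rose and 41.5% fell with shTRIB3-1, and 35.4% rose and 40.5% fell with shTRIB3-2. More of the 12 rose than fell with shTRIB3-1, the reverse of all genes tested, and more fell than rose with shTRIB3-2. The difference from all genes tested was not itself tested. With shTRIB3-1, 6 rose (CARS1, HARS1, SARS1, TARS1, VARS1 and YARS1) and 4 fell (AARS1, FARSA, NARS1 and WARS1). With shTRIB3-2, 3 rose (FARSB, HARS1 and SARS1) and 6 fell (AARS1, FARSA, GARS1, NARS1, WARS1 and YARS1). NARS1, the most abundant member, fell from a mean of 93.2 FPKM to 81.0 and 72.3 FPKM. GARS1, the glycine enzyme, was at 71.3, 75.3 and 57.3 FPKM in shCtrl, shTRIB3-1 and shTRIB3-2, which gave log2 fold changes of 0.08 (adjusted p = 0.0617) and -0.32 (adjusted p = 4.53e-06). Without shCtrl replicate 1 the GARS1 value with shTRIB3-1 passed (0.11, adjusted p = 0.00708), as it did after median scaling (0.16, adjusted p = 0.00305). TARS1, for threonine, was at 54.7, 63.8 and 52.1 FPKM, a rise of 0.22 with shTRIB3-1 (adjusted p = 9.88e-04) and a value of -0.07 with shTRIB3-2 (adjusted p = 0.199). VARS1, for valine, rose by 0.13 with shTRIB3-1 (adjusted p = 0.00503), a call lost as TPM (adjusted p = 0.0956), and had a value of 0.02 with shTRIB3-2 (adjusted p = 0.661). WARS1, for tryptophan, fell by 0.39 with shTRIB3-2. Its -0.11 with shTRIB3-1 (adjusted p = 0.0326) did not pass without shCtrl replicate 1 (adjusted p = 0.133), without shTRIB3-1 replicate 1 (0.0546), without shTRIB3-1 replicate 3 (0.0984), after median scaling (0.604) or with no filter (0.0573). The subunits of the phenylalanine enzyme differed in sign: FARSA fell, by log2 changes of -0.24 and -0.25, and FARSB had values of 0.11 (adjusted p = 0.0675) and 0.16 (adjusted p = 0.0101). The FARSB rise with shTRIB3-2 did not pass without shCtrl replicate 3 (adjusted p = 0.0508), and its value with shTRIB3-1 passed without shCtrl replicate 1 (0.14, adjusted p = 0.0281) and after median scaling (0.19, adjusted p = 0.00437).

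Most mitochondrial genes fell with each hairpin. With shTRIB3-1, 12 of 17 fell, 3 rose and 2 did not pass, and with shTRIB3-2, 13 fell, 2 rose and 2 did not pass. The shares lower were 70.6% and 76.5%, beside 41.5% and 40.5% of all genes tested. The shares higher were 17.6% and 11.8%, beside 32.9% and 35.4%. The median log2 fold changes of the mitochondrial genes were -0.31 and -0.47, and they remained below 0 under each scaling tried. Their summed level was 218 ± 2.35 FPKM in shCtrl, 182 ± 2.06 with shTRIB3-1 and 168 ± 3.79 with shTRIB3-2 (SD, n = 3 each), or 83.2% and 77.0% of control. FPKM are shares of a library's fragments, so fewer transcripts per cell and more RNA from other genes cannot be told apart.

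SARS2 and RARS2 were among the mitochondrial genes with the lowest values. SARS2 (chr19:38915266-38930763, minus strand), the mitochondrial serine enzyme, stood at 10.9, 11.0 and 11.0 FPKM in shCtrl, at 6.56, 5.91 and 6.35 FPKM with shTRIB3-1 and at 5.57, 5.04 and 6.34 FPKM with shTRIB3-2. All 6 knockdown libraries lay below the controls, and the knockdown groups overlapped each other. SARS2 fell, by log2 changes of -0.79 (adjusted p = 8.32e-07) and -0.95 (adjusted p = 1.46e-07), the largest fall of any member, against rises of 0.28 and 0.12 for its cytosolic counterpart SARS1. A readthrough gene on the same strand covers 48.2% of SARS2 exon bases, so its fragments are uncertain. RARS2 (chr6:87513459-87590028, minus strand), for arginine, stood at 13.96, 13.5 and 14.2 FPKM in shCtrl, at 8.97, 9.43 and 9.18 FPKM with shTRIB3-1 and at 8.66, 8.90 and 8.91 FPKM with shTRIB3-2. Its log2 fold changes were -0.59 (adjusted p = 6.07e-08) and -0.65 (adjusted p = 2.17e-08), with every knockdown library below every control.

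CARS2, EARS2 and HARS2 were the highest of the mitochondrial set. CARS2 (chr13:110641412-110713603, minus strand), for cysteine, stood at 7.94, 7.37 and 7.54 FPKM in shCtrl, at 10.8, 10.7 and 10.4 FPKM with shTRIB3-1 and at 10.4, 10.7 and 10.6 FPKM with shTRIB3-2. It rose by 0.48 (adjusted p = 6.80e-07) and by 0.46 (adjusted p = 7.99e-07), and the hairpins differed by -0.01 with a 95% interval from -0.11 to 0.08. EARS2 (chr16:23520754-23557731, minus strand), the glutamate enzyme that also starts mitochondrial glutaminyl-tRNA, stood at 14.2, 14.5 and 13.8 FPKM in shCtrl, at 17.6, 18.4 and 17.2 FPKM with shTRIB3-1 and at 15.2, 15.5 and 15.2 FPKM with shTRIB3-2. EARS2 rose by 0.32 (adjusted p = 8.40e-06) and by 0.11 (adjusted p = 0.0201). The smaller rise did not pass without shCtrl replicate 3 (adjusted p = 0.0768), without shTRIB3-2 replicate 2 (0.0510) or as TPM (0.0849). HARS2 (chr5:140691430-140699305, plus strand), for histidine, stood at 12.6, 12.8 and 11.5 FPKM in shCtrl, at 13.6, 14.9 and 14.2 FPKM with shTRIB3-1 and at 12.6, 11.2 and 12.4 FPKM with shTRIB3-2. It rose by 0.21 with shTRIB3-1 (adjusted p = 0.00518) and had a value of -0.03 with shTRIB3-2, where the libraries overlapped the controls (adjusted p = 0.692).

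VARS2 and 10 other mitochondrial genes filled the range between. VARS2 (chr6:30914205-30926459, plus strand), for valine, stood at 18.8, 20.0 and 20.1 FPKM in shCtrl, at 12.9, 13.2 and 13.1 FPKM with shTRIB3-1 and at 13.6, 14.1 and 13.7 FPKM with shTRIB3-2. It fell, by log2 changes of -0.58 (adjusted p = 3.98e-08) and -0.51 (adjusted p = 1.23e-07), although a readthrough gene on the same strand covers 63.0% of its exon bases. AARS2, for alanine, fell from 4.69 FPKM to 3.45 and 2.81 FPKM, and LARS2, for leucine, from 8.35 FPKM to 6.38 and 5.44 FPKM. IARS2, the most abundant mitochondrial member, fell from 61.2 FPKM to 50.3 and 47.1 FPKM. TARS2, WARS2, MARS2 and NARS2, for threonine, tryptophan, methionine and asparagine, fell with both hairpins, with log2 fold changes between -0.62 and -0.27. The 2 least abundant genes gave the least certain calls. PARS2, for proline, fell by 0.56 with shTRIB3-2, but its -0.31 with shTRIB3-1 (adjusted p = 0.0442) did not pass in 5 of the 9 fits that left out 1 library, with the highest adjusted p, 0.169, without shCtrl replicate 1. FARS2 had a value of 0.08 with shTRIB3-1 (adjusted p = 0.550) and of -0.30 with shTRIB3-2 (adjusted p = 0.0389), a call that likewise was lost in 5 of the 9 fits, up to 0.127 without shTRIB3-2 replicate 3. YARS2, for tyrosine, was at 8.76, 9.58 and 8.13 FPKM and did not pass with either hairpin (0.13, adjusted p = 0.101, and -0.11, adjusted p = 0.154). After median scaling the YARS2 value with shTRIB3-1 passed (0.21, adjusted p = 0.00724), and without shTRIB3-2 replicate 3 so did both, at 0.13 (adjusted p = 0.0416) and -0.19 (adjusted p = 0.0124).

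**Figure D4:**
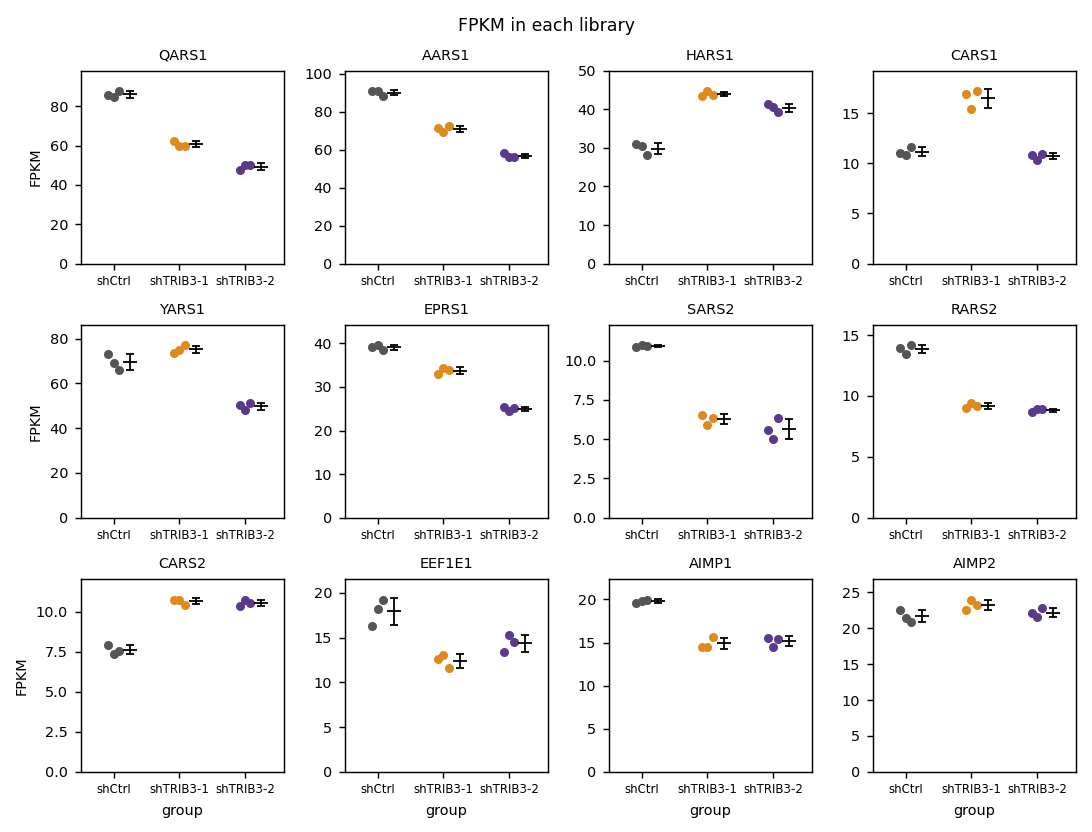
FPKM in each library (points) with the group mean and SD (bars, n = 3) for 12 members, each on its own axis from 0. QARS1, EPRS1 and YARS1 are lowest with shTRIB3-2, CARS1 is high in the 3 shTRIB3-1 libraries, HARS1 and CARS2 are high with both hairpins, and SARS2, RARS2, AARS1 and AIMP1 are low with both.

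Among the non-enzyme proteins of the complex, AIMP1 and EEF1E1 fell with both hairpins, and AIMP2 had log2 fold changes of 0.10 and 0.03. AIMP1 (chr4:106315544-106349456, plus strand), which anchors RARS1 and QARS1 in the complex, stood at 19.6, 19.8 and 20.0 FPKM in shCtrl, at 14.5, 14.5 and 15.7 FPKM with shTRIB3-1 and at 15.6, 14.5 and 15.4 FPKM with shTRIB3-2. It fell, by log2 changes of -0.41 (adjusted p = 2.95e-06) and -0.38 (adjusted p = 4.88e-06), with all 6 knockdown libraries below the controls. EEF1E1 (chr6:8073360-8102559, minus strand), which binds MARS1, stood at 16.3, 18.2 and 19.2 FPKM in shCtrl, at 12.6, 13.1 and 11.6 FPKM with shTRIB3-1 and at 13.4, 15.3 and 14.5 FPKM with shTRIB3-2. Its log2 fold changes were -0.52 (adjusted p = 1.96e-05) and -0.32 (adjusted p = 0.00112), and a readthrough gene on the same strand covers 18.8% of its exon bases. AIMP2 (chr7:6009255-6023834, plus strand), the central scaffold of the complex, stood at 22.6, 21.5 and 20.9 FPKM in shCtrl, at 22.6, 24.0 and 23.3 FPKM with shTRIB3-1 and at 22.2, 21.6 and 22.8 FPKM with shTRIB3-2. The AIMP2 groups overlapped. Its 0.10 with shTRIB3-1 (adjusted p = 0.0316) did not pass without shCtrl replicate 2 (adjusted p = 0.0806), without shCtrl replicate 3 (0.125), without shTRIB3-1 replicate 2 (0.112), without shTRIB3-1 replicate 3 (0.0677) or as TPM (0.338), and its value with shTRIB3-2 was 0.03 (adjusted p = 0.454). EIF2AK1, on the other strand, overlaps 29.1% of AIMP2 exon bases.

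Most cytosolic genes were lower with the hairpin that left less TRIB3 transcript. Compared directly, 17 of the 20 cytosolic genes were lower with shTRIB3-2 than with shTRIB3-1, 1 was higher and 2 did not pass, with a median log2 difference of -0.26. Over the 40 members, 25 were lower and 2 higher, or 62.5% and 5.0%, beside 20.7% of all genes tested that passed lower and 25.1% that passed higher. The median over all genes tested was 0.03, and 2.08% of them passed with a change above 1 on the log2 scale. Of the 17 mitochondrial genes, 8 were lower, none was higher and 9 did not pass, with a median of -0.16. Without shTRIB3-1 replicate 2 or without shTRIB3-2 replicate 2, 5 mitochondrial genes passed lower. As TPM, 13 cytosolic and 6 mitochondrial genes passed lower. TRIB3 itself was lower with shTRIB3-2, and the 2 hairpins are different sequences, so an effect of the depth of knockdown and an effect of the hairpin cannot be told apart.

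**Figure D5:**
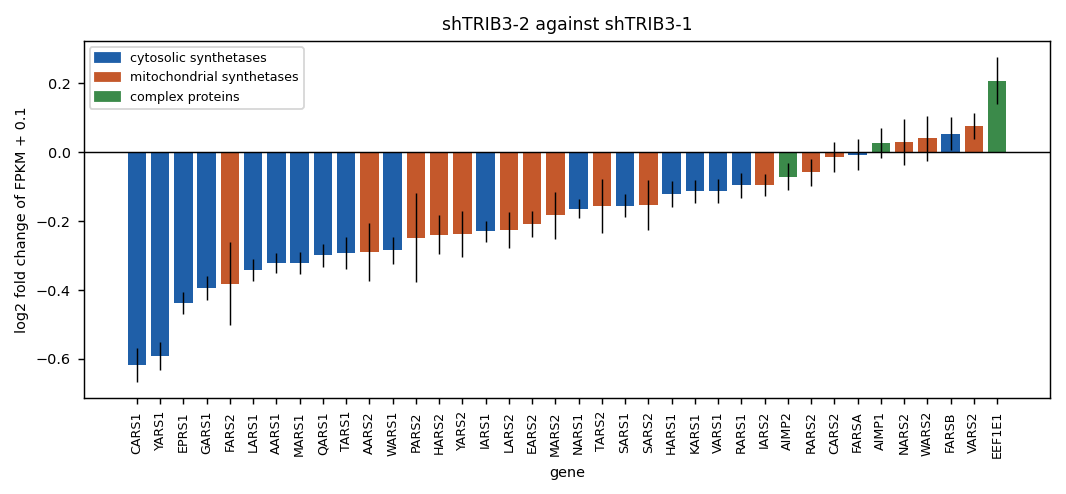
Log2 fold change of shTRIB3-2 against shTRIB3-1 on the log2(FPKM + 0.1) scale (bars from 0, with 1 standard error) for 38 members, ordered by value and colored by kind. CARS1 (-0.62) and YARS1 (-0.59) are lowest, and EEF1E1 (0.21) and VARS2 (0.08) are highest.

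CARS1, YARS1 and EPRS1 were furthest below with shTRIB3-2 compared with shTRIB3-1. CARS1, with the values given above, differed by -0.62 (SE 0.050, adjusted p = 1.59e-06), and no shTRIB3-2 library reached a shTRIB3-1 library. YARS1 (chr1:32775237-32818031, minus strand), the tyrosine enzyme, stood at 73.0, 69.3 and 65.9 FPKM in shCtrl, at 73.7, 75.0 and 77.0 FPKM with shTRIB3-1 and at 50.4, 48.2 and 51.2 FPKM with shTRIB3-2. It differed between hairpins by -0.59 (SE 0.040, adjusted p = 3.66e-07), from a value of 0.12 with shTRIB3-1 (adjusted p = 0.0185) and a value of -0.47 with shTRIB3-2 (adjusted p = 3.35e-07). The shTRIB3-1 rise of YARS1 did not pass as TPM (adjusted p = 0.220), without shCtrl replicate 3 (0.0896) or without shTRIB3-1 replicate 3 (0.0693). EPRS1 differed by -0.44 (SE 0.031, adjusted p = 5.67e-07). Among the members with the highest difference were EEF1E1 at 0.21 (adjusted p = 0.0261) and VARS2 at 0.08 (95% interval from -0.01 to 0.16, adjusted p = 0.127). The EEF1E1 difference did not pass without shTRIB3-1 replicate 3 (adjusted p = 0.106), without shTRIB3-2 replicate 2 (0.102), without shTRIB3-2 replicate 3 (0.0683), after median scaling (0.0732), with no filter (0.0837) or after quantile normalization (0.0627). Synthetases fall into structural classes I and II by the fold of their catalytic domain. All 9 class I cytosolic genes were lower with shTRIB3-2 than with shTRIB3-1, as were 7 of the 10 class II genes, with medians of -0.30 and -0.14. EPRS1 holds a domain of each class and was left out of that count. Of all genes tested, 20.7% passed lower in this comparison, and the difference between the classes was not tested. The RARS1 call of class I was near the threshold (adjusted p = 0.0484). As TPM, RARS1 and VARS1 of class I (adjusted p = 0.194 and 0.107) and HARS1 and KARS1 of class II (0.0893 and 0.0735) did not pass.

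Paired by amino acid, the mitochondrial gene had the lower log2 fold change in 15 of 18 pairs with shTRIB3-1, in 13 with shTRIB3-2 and in 4 for shTRIB3-2 against shTRIB3-1. Against shCtrl, the widest gap with each hairpin was that of SARS1 and SARS2. Values for threonine were 0.22 for TARS1 and -0.46 for TARS2 with shTRIB3-1, and for valine 0.13 for VARS1 and -0.58 for VARS2. Glutamate went the other way, with -0.21 for EPRS1 and 0.32 for EARS2. For cysteine, both genes rose with shTRIB3-1, by 0.56 for CARS1 and 0.48 for CARS2, while with shTRIB3-2 the values were -0.06 and 0.46. These counts describe the pairs, and the difference within a pair was not tested.

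Sequence just before and after the transcription start was compared next, for motifs that the choice of members did not use. RefSeq promoter windows (GRCh38.p14, from 250 bases before to 50 after the start) matched 33 of the 40 members. The C/EBP-ATF response element, a composite site bound by ATF4 with C/EBP proteins, was searched as TGATGNAA and, on the other strand, TTNCATCA. It occurred in the windows of 8 members, or 24.2%, against 4.46% of the 27305 genes with a window. Of the members with a window, 7 of 16 cytosolic genes (43.8%) and 1 of 14 mitochondrial genes (7.14%) held it. The matches are shown with 11 bases on either side, 5′ to 3′ on the strand of the gene and with the motif in capitals, because 6 of the 8 hold the same letters, TTGCATCA on one strand or TGATGCAA on the other.
CARS1: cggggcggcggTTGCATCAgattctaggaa
MARS1: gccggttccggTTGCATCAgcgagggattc
TARS1: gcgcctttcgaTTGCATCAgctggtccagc
IARS1: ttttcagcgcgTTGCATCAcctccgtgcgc
AARS1: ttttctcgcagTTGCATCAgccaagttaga
NARS1: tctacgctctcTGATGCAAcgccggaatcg
GARS1: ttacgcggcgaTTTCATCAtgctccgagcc
YARS2: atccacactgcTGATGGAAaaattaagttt
These stretches lie at chr11:3057407-3057436 (minus strand) for CARS1, chr12:57488053-57488082 (plus) for MARS1, chr5:33440956-33440985 (plus) for TARS1, chr9:92293692-92293721 (minus) for IARS1, chr16:70289675-70289704 (minus) for AARS1, chr18:57621804-57621833 (minus) for NARS1, chr7:30594834-30594863 (plus) for GARS1 and chr12:32756076-32756105 (minus) for YARS2. In CARS1, MARS1, TARS1, IARS1 and NARS1 the motif lay within 21 bases of the annotated start. Only 4 of the 8 windows held it when the bases after the start were left out. The share of members was then 12.1%, against 3.89% of all genes with a window. It was 18.8% for the cytosolic genes and 7.14% for the mitochondrial genes. A match describes letters in the window and is not a binding site.

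Members with and without the motif can be set side by side. The 7 cytosolic genes that held it had median log2 fold changes of 0.03 with shTRIB3-1, -0.29 with shTRIB3-2 and -0.32 for shTRIB3-2 against shTRIB3-1, and 7 of the 7 were lower in the last comparison. The 9 cytosolic genes with a window and no match had medians of -0.21, -0.30 and -0.12, and 7 of the 9 were lower in the last comparison. In the last comparison, 20.7% of all genes tested passed lower and 25.1% higher. As TPM, HARS1, KARS1 and RARS1, which have a window and no match, did not pass there (adjusted p = 0.0893, 0.0735 and 0.194). The difference between these sets was not tested. In that comparison the genes with the motif ran from -0.62 for CARS1 to -0.16 for NARS1. Those without it ran from -0.44 for EPRS1 to 0.05 for FARSB. YARS1 (-0.59), LARS1 (-0.34) and VARS1 (-0.11) were among the cytosolic genes without a window and are in neither set. Of the other motifs, the E-box CACGTG occurred in 15.2% of member windows (IARS1, CARS2, EARS2, MARS2 and AIMP2) against 8.77% of all. The NRF1 site GCGCATGC or GCATGCGC, of a factor known for nuclear genes of mitochondrial proteins, occurred in 6.06% (MARS2 and YARS2) against 3.68%. In MARS2 its matches on the 2 strands overlap each other, and no C/EBP-ATF match overlaps another motif. The windows of HARS1 and HARS2 share 184 bases on opposite strands, and HARS1 rose with both hairpins while HARS2 rose with shTRIB3-1.

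The genes upstream of the synthetases in the amino acid response were read for the same libraries. ATF4 transcript fell from a mean of 50.3 FPKM in shCtrl to 37.6 FPKM with shTRIB3-1 and 30.8 FPKM with shTRIB3-2, by 0.42 (adjusted p = 6.58e-07) and by 0.71 (adjusted p = 4.65e-09). Transcript level does not report ATF4 protein, which is set largely at translation. Of all genes tested, 32.9% rose and 41.5% fell with shTRIB3-1, and 35.4% rose and 40.5% fell with shTRIB3-2. Of 10 genes of starvation sensing, 4 rose and 3 fell with shTRIB3-1, and 5 rose and 2 fell with shTRIB3-2, and with so few genes nothing is read from these counts. PPP1R15A, which encodes the phosphatase subunit that reverses the kinase signal, rose by 1.36 and by 1.43 on the log2 scale. Of 32 ATF4 targets other than synthetases, 28 were tested. With shTRIB3-1, 9 rose and 13 fell, which is 32.1% and 46.4% and near the shares of all genes tested. With shTRIB3-2, 6 rose and 18 fell, which is 21.4% and 64.3%. The medians were -0.12 and -0.39, beside -0.06 and -0.03 over all genes tested. PSAT1, of serine synthesis, fell, by log2 changes of -1.45 and -1.94, the largest falls of that list. With shTRIB3-2, the other genes that fell by more than 1 were PHGDH (serine synthesis) at -1.41, SHMT2 (mitochondrial serine and glycine conversion) at -1.17, CTH (cysteine synthesis) at -1.04, SLC6A9 (glycine uptake) at -1.42 and the stress protein gene NUPR1 at -1.41. ATF3, a transcription factor of the stress response, rose by 1.15 and by 1.22. ASNS, CHAC1, ALDH1L2 and FGF21 did not pass the filter on low values.

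Genes that work beside the synthetases gave the following counts, to be read beside the 32.9% of all genes tested that rose and 41.5% that fell with shTRIB3-1, and the 35.4% and 40.5% with shTRIB3-2. Of 13 genes for handling and editing charged tRNA, 12 were tested, and 2 rose and 6 fell with shTRIB3-1 while 1 rose and 7 fell with shTRIB3-2. XPOT, which exports tRNA from the nucleus, fell, by log2 changes of -0.21 and -0.41, and DTD1, which removes D-amino acids from tRNA, rose by 0.43 and by 0.33. Of 13 mitochondrial translation factors and regulators, 9 fell and 1 rose with shTRIB3-1, and 7 fell and 1 rose with shTRIB3-2. GFM2, a mitochondrial ribosome recycling factor, fell, by log2 changes of -1.10 and -1.25. Of 13 cytosolic elongation and termination factors, 4 rose and 4 fell with shTRIB3-1, and 4 rose and 5 fell with shTRIB3-2, shares of 30.8% and 30.8%, then 30.8% and 38.5%, that are near or below those of all genes tested. Among them, EEF1A2 rose from 1.20 FPKM to 3.07 and 3.49 FPKM.

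The libraries were of like depth, from 34206726 to 36311029 fragments, a ratio of 1.06, with whole fragments recovered for 100% of 172769 values above 0 (within 0.02 of a whole number). Replicate libraries were distinct: in 9 of 9 within-group pairs, chi-square per degree of freedom was from 3.13 to 7.54. All 13 HepG2 markers (ALB, AFP and APOA1 among them) were at 1 FPKM or more in every library, and 10 of 12 markers of other cell types were under 1 FPKM in every library. The exceptions were CD68, a lysosomal protein gene, and DES. Single HepG2 markers moved both ways: 15.4% rose and 61.5% fell with shTRIB3-1, beside 32.9% and 41.5% of all genes tested. With shTRIB3-2, 46.2% rose and 30.8% fell, beside 35.4% and 40.5%. TTR had log2 changes of 1.08 and 1.71, and APOH of -1.09 and -0.84. The summed level of the HepG2 markers was 12336 ± 482 FPKM in shCtrl, 11196 ± 285 with shTRIB3-1 and 13984 ± 229 with shTRIB3-2 (SD, n = 3 each). The part of these marker changes in the synthetase values was not tested. The summed level of the 12 other markers, nearly all of it CD68, was 32.5 ± 3.01, 39.3 ± 1.66 and 34.6 ± 0.890 FPKM.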

How the data were processed

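The authors aligned paired-end reads to GRCh38 with STAR and used DESeq2, by the study's methods. The submitters' processing notes name HTSeq and R 3.2.0. The authors deposited FPKM, 1 column per library, and no column of per-sample values was left unused (0). The labels and the methods name different library kits, so use of the strand in counting is not given in the sources used here. From FPKM, log2(FPKM + 0.1) was tested with limma 3.58.1 in R 4.3.3 (empirical Bayes with a mean-variance trend, two-sided), with 3 group means over 9 libraries, for 11265 genes at 1 FPKM or more in at least 3 libraries, with Benjamini-Hochberg adjustment over all of them. The scripts were tested on simulated data. Whole fragments, the gene lengths and the library totals were recovered from FPKM, and voom on those fragments was an alternative chosen after seeing the data. DESeq2 was not run on them.

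The members and lists were chosen with earlier results of these data known. Values in every library were given for TRIB3, the 3 complex proteins, the 3 highest and 3 lowest cytosolic and mitochondrial genes by mean log2 fold change against shCtrl, and the 3 members most above and most below in shTRIB3-2 against shTRIB3-1. Of the 40 members, 2 enter the counts, medians and sums and are not reported here by gene. Annotation and overlaps came from GENCODE v44 and promoters from RefSeq. Hairpin targets came from the study's supplement. Alternatives were the pseudocount, the filter, the scaling, the groups fitted, a replicate block, and leaving out each library.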

Additional observations from a re-analysis of the deposited data

Results flagged for a closer look

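YARS1, the tyrosine enzyme, was called in opposite directions by the hairpins against shCtrl, 0.12 with shTRIB3-1 and -0.47 with shTRIB3-2 on the log2 scale. The difference of shTRIB3-2 against shTRIB3-1 was tested directly and was -0.59 (limma, adjusted p = 3.66e-07), with 3 of 3 shTRIB3-2 libraries below 3 of 3 shTRIB3-1 libraries. The rise with shTRIB3-1 was lost under 3 alternatives, with adjusted p from 0.0693 to 0.220, and 1 shCtrl library (73.0 FPKM) lay within 1 FPKM of the lowest shTRIB3-1 library (73.7 FPKM).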

How the results depend on the processing

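Of the members' calls in the 3 comparisons under every alternative, 2043 kept their side of the threshold, 86 lost the threshold and 22 gained it. None that passed in the main fit or the alternative changed direction between them. Values that passed in neither fit count as kept, and their sign was not checked. Median scaling gave 10 cytosolic genes higher with shTRIB3-1 in place of 6. Cytosolic medians with shTRIB3-1 were 0.079 after median scaling, -0.055 as TPM and 0.021 after quantile normalization, and ran from -0.0053 to -0.000067 when 1 library was left out. Mitochondrial medians with shTRIB3-1 were -0.28 with a pseudocount of 1, -0.23, -0.38 and -0.27 under those scalings, and from -0.36 to -0.30 without 1 library. With shTRIB3-2, cytosolic medians were -0.30 with a pseudocount of 1, -0.26, -0.33 and -0.29 under those scalings, and from -0.32 to -0.28 without 1 library. Mitochondrial ones were -0.37 with a pseudocount of 1, -0.41 after median scaling and -0.40 after quantile normalization. The number of mitochondrial genes higher with shTRIB3-2 was 1 as TPM and 1 to 2 without 1 library. For shTRIB3-2 against shTRIB3-1, cytosolic medians were -0.29 after median scaling, -0.23 as TPM and -0.26 to -0.24 without 1 library, and the number of mitochondrial genes lower was 5 to 8. The C/EBP-ATF element was in 4 member promoters when only the 250 bases before the start were searched. The cause of these shifts was not tested, beyond the smaller window in the last. A replicate block, which takes the label's replicate number as a shared effect, gave 9 cytosolic and 11 mitochondrial genes lower with shTRIB3-1. It lost PARS2 with shTRIB3-1 (adjusted p = 0.0579), and RARS1 (0.0514) and MARS2 (0.0535) in shTRIB3-2 against shTRIB3-1, and gained TARS2 there (0.0378). Correlations of deviations between same-numbered libraries were -0.074 to 0.093, so the numbers were not read as pairs. A filter of 5 FPKM tested fewer mitochondrial genes. Voom called 3766 genes higher and 4740 lower with shTRIB3-1, against 3701 and 4678 by limma on FPKM.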
